A study of Mus musculus with 12 samples.

Results

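The pentraxin genes Nptx1, Nptx2, Nptxr and Ptx3 are 4 of the 55487 genes in the deposited table, found by their symbols. They share a family, and the family was chosen by the measured response of Nptx1: its rise with PDGF-BB was the largest of all genes tested in wild-type cells and much smaller in cells labelled as TIGAR knockout. The values of Nptx1 are therefore given as a description, with no test, while Nptx2, Nptxr and Ptx3 were tested. All 4 genes passed the filter on low values (a CPM minimum of 1, reached in 3 or more libraries), and each stood above that minimum in every library.

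The libraries came from primary vascular smooth muscle cells of mice aged 4 to 6 weeks, used between passages 4 and 6. The 4 groups of 3 libraries were wild-type (WT) untreated, WT with PDGF-BB, labelled knockout (TIGAR KO) untreated, and labelled knockout with PDGF-BB, where treatment was 40 µg/L for 6 h. PDGF-BB is a platelet-derived growth factor that drives proliferation and migration of smooth muscle cells, and TIGAR is a phosphatase under p53 control that limits glycolysis. The labels give neither the knockout allele nor the mouse strain, and nothing in them ties a library to its own animal or culture. The p-values therefore describe only how far these samples spread, which may be technical.

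Library totals ranged from 14953807 to 21698488 reads. Values are CPM, the reads of a gene per 1000000 counted reads of the library. The label check on Tigar itself went against the knockout label, since it stood at 7.50 ± 0.955 CPM (SD, n = 3) in WT untreated and 11.2 ± 1.12 CPM in labelled knockout untreated cells, and at 11.9 ± 0.659 and 15.2 ± 0.888 CPM with PDGF-BB. These are values over the whole gene and do not show which exons the reads came from. Every direction between genotypes below is by label. All 8 smooth muscle markers passed the filter, although Tagln stood at only 2.98 to 7.12 CPM. One WT library with PDGF-BB, replicate 1, stood apart: its root mean square distance from its group was 0.416 on the log2 scale, and the other 11 libraries lay at 0.143 to 0.293. Genes with longer exons were lower in it relative to replicates 2 and 3 (Spearman rho with length of -0.55 and -0.57 across 14202 genes, a description).

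Pentraxins are secreted or membrane-bound proteins that share a conserved C-terminal pentraxin domain and assemble into multimers. The neuronal pentraxins Nptx1 and Nptx2 are secreted at synapses, where they gather AMPA-type glutamate receptors, and Nptxr is their membrane-anchored relative. Ptx3 is a long pentraxin of innate immunity made by vascular and myeloid cells under inflammatory stimuli; it binds complement C1q and FGF2, and takes part in cross-linking hyaluronan-rich matrix.

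Nptx1 (ENSMUSG00000025582) lies on chromosome 11, 119538719 to 119547753, minus strand, in GRCm38, and its single annotated transcript has 5 exons. In WT untreated cells its libraries stood at 4.41, 4.02 and 4.35 CPM, and in WT cells with PDGF-BB at 108, 142 and 139 CPM. In labelled knockout cells they stood at 6.61, 9.23 and 7.12 CPM untreated and at 29.1, 30.5 and 33.9 CPM with PDGF-BB. The 4 groups did not overlap: WT untreated was lowest and WT with PDGF-BB highest. The group means were 4.26 ± 0.209 and 129 ± 18.8 CPM in WT, and 7.65 ± 1.39 and 31.2 ± 2.46 CPM in labelled knockout cells (SD, n = 3).

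The ratio of mean CPM with and without PDGF-BB was 30.4 for Nptx1 in WT and 4.08 in labelled knockout cells. On the scale of log2(CPM + 1) the changes were 4.62 (SE 0.13) and 1.90 (SE 0.13). Ordered by this change among 14202 genes, Nptx1 ranked 1 in WT and 40 in labelled knockout cells. The response in labelled knockout minus that in WT was -2.72 (SE 0.18), rank 1 from the lowest. Those values chose the gene and carry no test. With PDGF-BB the genotype labels differed by -2.01 (SE 0.13), rank 24 from the lowest, while without it they differed the other way by 0.71 (SE 0.13), rank 558 from the highest. Without the library that stood apart, the WT response was 4.75 and the difference between responses -2.84.

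**Figure D1:**
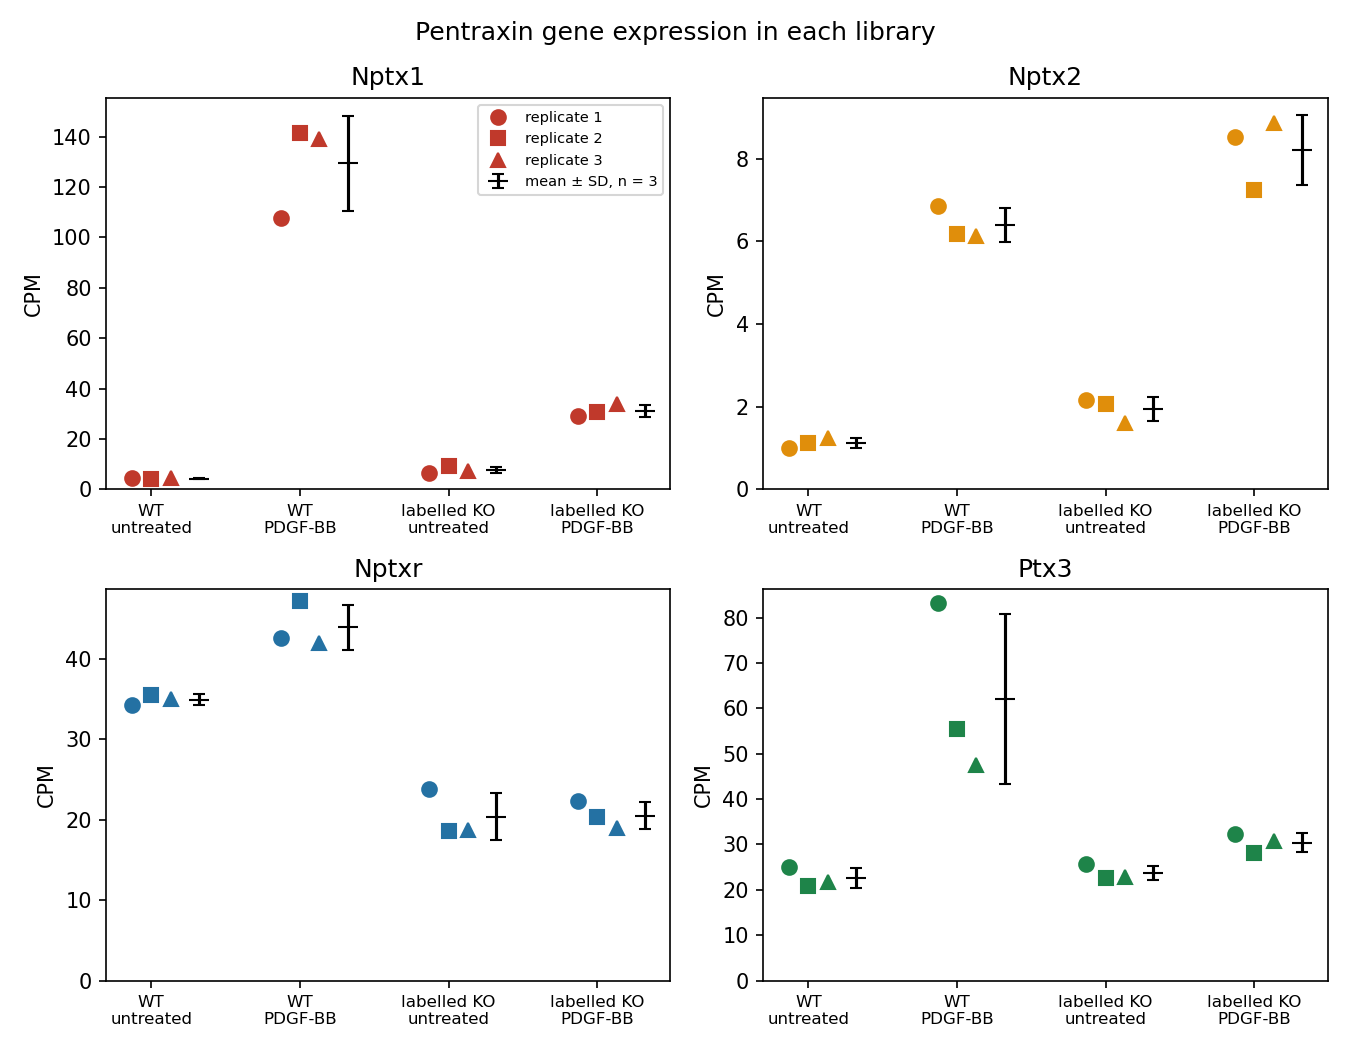
CPM of the 4 pentraxin genes in each of the 12 libraries, by group; markers give the replicate and bars the mean ± SD (n = 3). Nptx1 and Ptx3 are highest in WT cells with PDGF-BB, Nptx2 is high in both treated groups, and Nptxr is lower in both groups labelled knockout than in either WT group.

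Nptx2 (ENSMUSG00000059991), also known as Narp, lies on chromosome 5, 144545902 to 144557478, plus strand, with 5 exons. It had few reads, 16 to 185 per library. WT untreated libraries stood at 1.01, 1.12 and 1.25 CPM, and WT libraries with PDGF-BB at 6.86, 6.18 and 6.13 CPM. Labelled knockout libraries stood at 2.16, 2.07 and 1.61 CPM untreated and at 8.53, 7.25 and 8.87 CPM with PDGF-BB. Each treated library lay above each untreated library, and within each treatment the labelled knockout libraries lay above the WT ones.

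Nptxr (ENSMUSG00000022421) lies on chromosome 15, 79786351 to 79804766, minus strand, with 5 exons in its longest coding transcript. WT untreated libraries stood at 34.3, 35.5 and 35.0 CPM and WT libraries with PDGF-BB at 42.6, 47.2 and 42.0 CPM. Labelled knockout libraries stood at 23.8, 18.7 and 18.7 CPM untreated and at 22.3, 20.3 and 18.9 CPM with PDGF-BB. The WT groups did not overlap with each other or with the labelled knockout groups, whose own ranges overlapped. In the annotation 890 exonic bases of Nptxr, 17.2% of its exonic length, also belong to Npcd on the same strand, and Npcd is listed at 0 in every library, so reads over those bases may be missing from the value of Nptxr.

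Ptx3 (ENSMUSG00000027832) lies on chromosome 3, 66219910 to 66225805, plus strand, with 3 exons in its coding transcript, inside the span of Veph1 on the other strand but sharing 0 exonic bases with it. WT untreated libraries stood at 25.1, 20.9 and 21.6 CPM and WT libraries with PDGF-BB at 83.1, 55.6 and 47.5 CPM. Labelled knockout libraries stood at 25.6, 22.7 and 22.9 CPM untreated and at 32.3, 28.2 and 30.7 CPM with PDGF-BB. The untreated groups overlapped, the treated groups lay above them without overlap, and WT with PDGF-BB was highest. Its spread there came mainly from replicate 1, the library that stood apart.

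Of the 4 members, 1 (Ptx3) was in the RefSeq promoter table of GRCm38.p6. Its promoter is shown because Ptx3 is a known target of NF-kappaB and other genes of that kind are given below. The sequence, chr3:66219637-66219909, plus strand, ends at the base before the gene start in the deposited table, with matches to the searched motifs in capitals.
Ptx3: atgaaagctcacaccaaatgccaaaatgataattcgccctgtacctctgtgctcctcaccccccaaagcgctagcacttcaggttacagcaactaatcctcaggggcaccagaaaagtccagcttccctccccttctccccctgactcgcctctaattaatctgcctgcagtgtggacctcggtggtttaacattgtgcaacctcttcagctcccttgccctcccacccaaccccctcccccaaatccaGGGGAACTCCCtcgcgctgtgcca
The capitals are overlapping matches to the NF-kappaB consensus, GGGGAACTCC and GGGAACTCCC, of which the second matches on both strands. They lie at -24 to -14 from that start, while the RefSeq start lies 23 bases before it, and the window was ended there after the matches were seen. Such a match is found in 7.79% of 32851 promoter windows of the same length (273 bases). No match was found on either strand for AP-1 (TGANTCA, in 7.31% of windows), CRE (TGACGTCA, 1.73%), the E-box (CACGTG, 6.63%), EGR (GCGGGGGCG or GCGTGGGCG, 3.33%) or the serum response CArG box (1.53%). These are descriptions of letters in this window and say nothing of binding.

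The first comparison asked what PDGF-BB did in WT cells. Nptx2, Ptx3 and Nptxr all rose, 3 of the 3 tested members, where 25.0% of all genes tested rose and 59.4% were called in either direction. Nptx2 went from 1.13 ± 0.122 to 6.39 ± 0.409 CPM (SD, n = 3), a ratio of 5.67 and a log2 change of 1.80 (SE 0.12, limma-trend adjusted p = 5.99e-08). Ptx3 went from 22.6 ± 2.26 to 62.1 ± 18.7 CPM, a ratio of 2.75 and a log2 change of 1.38 (SE 0.16, adjusted p = 6.81e-06). Nptxr rose less, from 35.0 ± 0.633 to 43.9 ± 2.83 CPM, a ratio of 1.26 and a log2 change of 0.32 (SE 0.099, adjusted p = 0.0132).

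In bulk RNA, fewer cells of a type and less RNA per cell cannot be told apart. Without replicate 1 of WT with PDGF-BB the change of Ptx3 was 1.16 (adjusted p = 5.68e-09), and in that replicate Ptx3 stood 0.68 above the mean of replicates 2 and 3 on the log2 scale, against 0.14 for Nptx2, -0.061 for Nptxr and -0.38 for Nptx1. Coding transcript lengths were 1898, 2536, 5006 and 5217 bases in that order, and the part of the length trend in these gaps was not tested. The call of Nptxr was lost without replicate 2 of WT with PDGF-BB (0.27, adjusted p = 0.0551, within 0.000570 to 0.0551 over all alternatives). Log2(CPM + 1) understates the change of a gene as low as Nptx2, whose edgeR change was 2.58.

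The second comparison asked the same of labelled knockout cells. Nptx2 rose again, from 1.95 ± 0.294 to 8.21 ± 0.856 CPM (SD, n = 3), a ratio of 4.22 and a log2 change of 1.64 (SE 0.12, limma-trend adjusted p = 3.46e-07). It was 1 of the 3 tested members to rise, where 17.6% of all genes rose and 42.4% were called. Ptx3 went from 23.7 ± 1.62 to 30.4 ± 2.07 CPM, a ratio of 1.28, and its libraries did not overlap, but the change of 0.34 was not called (SE 0.16, adjusted p = 0.0935). Nptxr stood at 20.4 ± 2.96 and 20.5 ± 1.70 CPM, a difference of 0.01 with a 95% interval of -0.20 to 0.23 (adjusted p = 0.931).

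The Ptx3 change in labelled knockout cells lay on either side of the threshold under different settings. Its adjusted p was 0.00177 without replicate 1 of WT with PDGF-BB, 0.0405 without replicate 3 of that group, and 0.00179 in a fit of the compared groups alone, within 0.00177 to 0.225 over all alternatives. With TMM scaling it was 0.0477 and with DESeq2 0.0426.

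**Figure D2:**
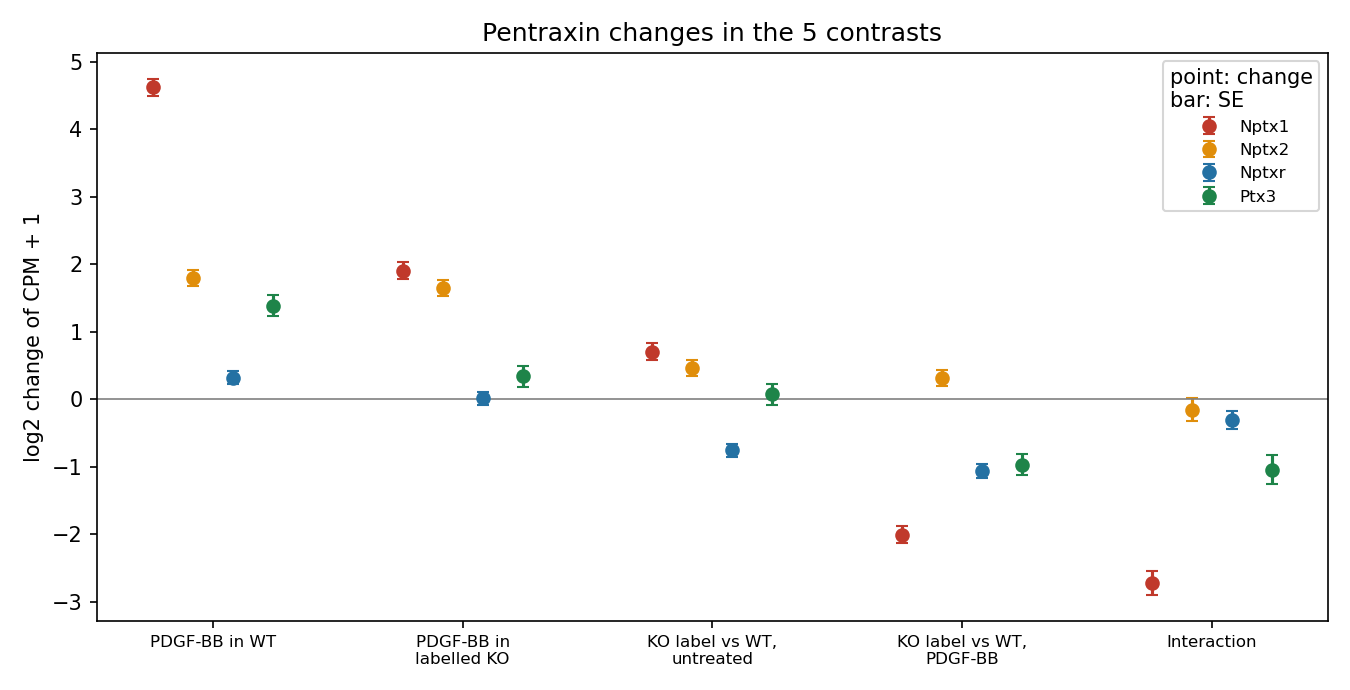
Log2 change of CPM + 1 of each pentraxin gene in the 5 contrasts, with SE. Nptx1 moves from 4.62 in WT to 1.90 in labelled knockout cells and Ptx3 from 1.38 to 0.34, whereas Nptx2 is at 1.80 and 1.64; the values of Nptx1 chose the family and are a description.

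The difference between the responses was tested as an interaction, the response in labelled knockout minus that in WT. Ptx3 had the smaller response in labelled knockout cells, at -1.04 (SE 0.22, limma-trend adjusted p = 0.0193), and was 1 of the 3 tested members called, where 3.92% of all genes were called, 2.25% with a higher and 1.68% with a lower value. Over all genes this was 557 calls, 319 higher and 238 lower, and TMM scaling gave 261 and 298. Leaving out 1 library gave 274 to 1554 calls, the most without replicate 1 of WT with PDGF-BB. Nptx2 had an interaction of -0.15 with a 95% interval of -0.52 to 0.21 (adjusted p = 0.659, within 0.344 to 0.868 over all alternatives). Its ratios of mean CPM were 5.67 in WT and 4.22 in labelled knockout cells, a gap that log2(CPM + 1) understates at such low values. Nptxr had an interaction of -0.31, with an interval of -0.61 to -0.0060 (adjusted p = 0.252), and was not called.

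The Ptx3 interaction was -0.81 (adjusted p = 0.000308) without replicate 1 of WT with PDGF-BB. The call was lost when WT untreated replicate 2 (-0.99, adjusted p = 0.0558) or replicate 3 (-1.01, 0.0539) was left out. It was also lost without treated labelled knockout replicate 2 (-0.99, adjusted p = 0.0632) or replicate 3 (-1.05, 0.0505), within 0.000235 to 0.0632 over all alternatives.

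**Figure D3:**
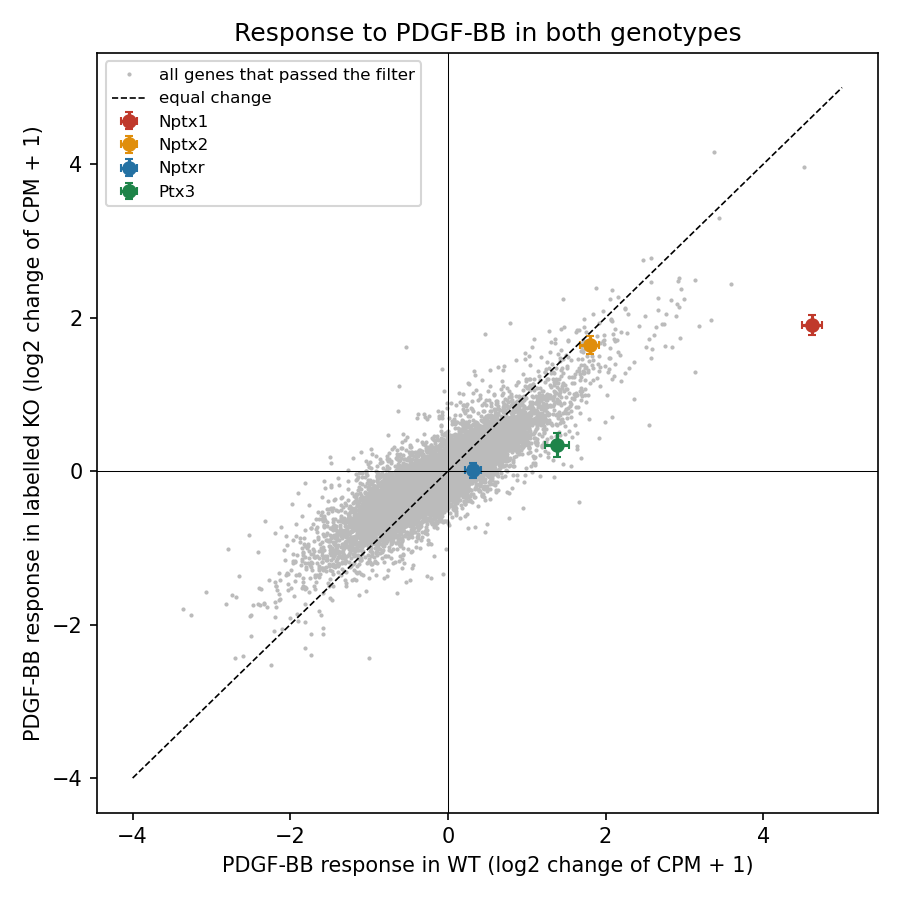
PDGF-BB response in WT (x) against that in labelled knockout cells (y), both as log2 change of CPM + 1, for 14202 genes (grey) and the pentraxin genes (coloured, with SE). On this scale, which understates the changes of low genes, Nptx2 (1.80, 1.64) lies near the dashed line of equal change. Nptx1 (4.62, 1.90) and Ptx3 (1.38, 0.34) lie below that line.

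The genotype labels were next compared without PDGF-BB, where 34.0% of all genes tested were called and 2 of the 3 tested members. Nptxr was lower in labelled knockout cells by label, at 20.4 ± 2.96 against 35.0 ± 0.633 CPM (SD, n = 3; log2 -0.76, SE 0.099, limma-trend adjusted p = 6.22e-05). Nptx2 was higher, at 1.95 ± 0.294 against 1.13 ± 0.122 CPM (0.47, SE 0.12, adjusted p = 0.00880). Ptx3 differed by 0.07, with a 95% interval of -0.27 to 0.41 (adjusted p = 0.764). Of the calls over all genes 1300 were higher and 3523 lower, and TMM scaling gave 1930 and 2034. TMM scaling moved the median of all genes from -0.13 to -0.0071, and Nptxr then stood at -0.63, Nptx2 at 0.54, Ptx3 at 0.20 and Nptx1 at 0.82.

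With PDGF-BB, 37.2% of all genes differed by label, and Nptxr and Ptx3 were lower, 2 of the 3 tested members against 26.6% of all genes. Nptxr stood at 20.5 ± 1.70 against 43.9 ± 2.83 CPM (SD, n = 3; log2 -1.06, SE 0.099, limma-trend adjusted p = 2.79e-06). Ptx3 stood at 30.4 ± 2.07 against 62.1 ± 18.7 CPM (-0.97, SE 0.16, adjusted p = 0.000359), and at -0.74 (adjusted p = 4.34e-06) without replicate 1 of WT with PDGF-BB. Nptx2 stood at 8.21 ± 0.856 against 6.39 ± 0.409 CPM, a change of 0.32 that was not called (SE 0.12, adjusted p = 0.0550). Nptx2 passed under TMM scaling (0.41, adjusted p = 0.0195), quantile normalization (0.41, 0.0172), edgeR (0.47, 0.0199) and DESeq2 (0.49, 0.0168), and without replicate 2 of labelled knockout with PDGF-BB (0.39, 0.0454), within 0.0168 to 0.193 over all alternatives. Over all genes 1507 calls were higher and 3777 lower, and TMM scaling gave 1928 and 2139. The 2 comparisons of labels share no library, and the comparisons of treatment share their libraries with them.

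The summed level of the smooth muscle markers was 4302 to 4892 CPM in WT untreated and 2836 to 3181 CPM in WT treated libraries, against 4245 to 5971 and 4999 to 5144 CPM in labelled knockout libraries. The treated labels thus did not overlap, and the part of this in the responses of Nptx1 and Ptx3 was not tested. This sum was mostly Acta2 and Cald1, and its genes did not move as 1. In WT the means of Acta2, Cald1 (2532 to 1326 CPM), Myh11, Lmod1 and Myocd were lower with PDGF-BB. Those of Cnn1 (66.2 to 89.2 CPM), Smtn (118 to 152 CPM) and Tagln were higher. Markers of other cell types moved with the genotype label. All 5 endothelial markers passed the filter, and their summed level was 84.0 to 91.9 CPM in WT untreated against 578 to 652 CPM in labelled knockout untreated libraries, and 70.5 to 73.9 against 543 to 556 CPM with PDGF-BB. Of 8 myeloid markers 6 passed, with summed levels of 126 to 135 against 30.0 to 35.6 CPM untreated, and 96.3 to 136 against 30.6 to 34.2 CPM with PDGF-BB. Endothelial and myeloid cells can make Ptx3, and the part of either in its values was not tested. Of 13 neuronal markers 4 passed (Map2, Tubb3, Stmn2 and Gap43), while Rbfox3 and Snap25 stood at no more than 0.138 and 0.102 CPM in any library. The neuronal sum, mostly Map2 and Tubb3, was 148 to 156 CPM in WT against 309 to 390 CPM in labelled knockout untreated libraries. With PDGF-BB it was 75.4 to 91.8 against 215 to 222 CPM. These genes moved in opposite directions with PDGF-BB. The mean of Map2 went from 137 to 52.5 CPM in WT and from 316 to 153 CPM in labelled knockout cells. That of Tubb3 went from 11.5 to 28.1 CPM and from 31.2 to 57.7 CPM. The part of neuronal markers in the values of the neuronal pentraxins was not tested. Of 5 glial markers 3 passed, with sums of 35.0 to 55.6 CPM in WT and 12.2 to 17.4 CPM in labelled knockout libraries, and Sox10 was listed at 0 throughout. Fibroblast markers (4 of 5 passed) summed to 107 to 123 CPM in WT against 85.8 to 127 CPM in labelled knockout untreated libraries, which overlapped, and to 74.8 to 84.8 against 46.7 to 50.9 CPM with PDGF-BB, which did not.

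Levels of different genes were compared per kb of exon. In WT untreated cells the order was Ptx3 (8.41 ± 0.843 CPM per kb, SD, n = 3), Nptxr (6.76 ± 0.122), Nptx1 (0.817 ± 0.0400) and Nptx2 (0.444 ± 0.0479), with no overlap between neighbours. With PDGF-BB in WT cells Nptx1 (24.8 ± 3.60) and Ptx3 (23.1 ± 6.98) led and overlapped, followed by Nptxr (8.50 ± 0.548) and Nptx2 (2.52 ± 0.161). In labelled knockout untreated cells the order was again Ptx3 (8.84 ± 0.603), Nptxr (3.95 ± 0.572), Nptx1 (1.47 ± 0.266) and Nptx2 (0.768 ± 0.116). With PDGF-BB it became Ptx3 (11.3 ± 0.771), Nptx1 (5.98 ± 0.472), Nptxr (3.97 ± 0.329) and Nptx2 (3.24 ± 0.337), all without overlap. The exon union of Ptx3 (2682 bases) includes a retained-intron transcript, and with its coding transcript of 1898 bases Ptx3 stood at 32.7 ± 9.86 in WT cells with PDGF-BB, above the mean of Nptx1.

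Summed over the 4 genes the level per kb went from 16.4 ± 0.718 to 59.0 ± 3.90 CPM per kb with PDGF-BB in WT (SD, n = 3), and from 15.0 ± 1.10 to 24.5 ± 1.19 CPM per kb in labelled knockout cells. Ptx3 made up 51.1% of this sum in WT untreated and 38.9% in WT treated cells, and 58.9% and 46.2% in labelled knockout cells. Nptx1 made up 4.97% in WT untreated and 42.4% in WT treated cells, against 9.83% and 24.4% in labelled knockout cells. Nptxr went from 41.2% to 14.4% of the sum in WT, and from 26.2% to 16.2% in labelled knockout cells. Nptx2 reached 13.2% in labelled knockout cells with PDGF-BB and 4.28% in WT cells with it. These shares follow from the levels above and carry no test. They use the exon unions, and with its shorter coding transcript Ptx3 would make up more of the sum and Nptx1 less.

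**Figure D4:**
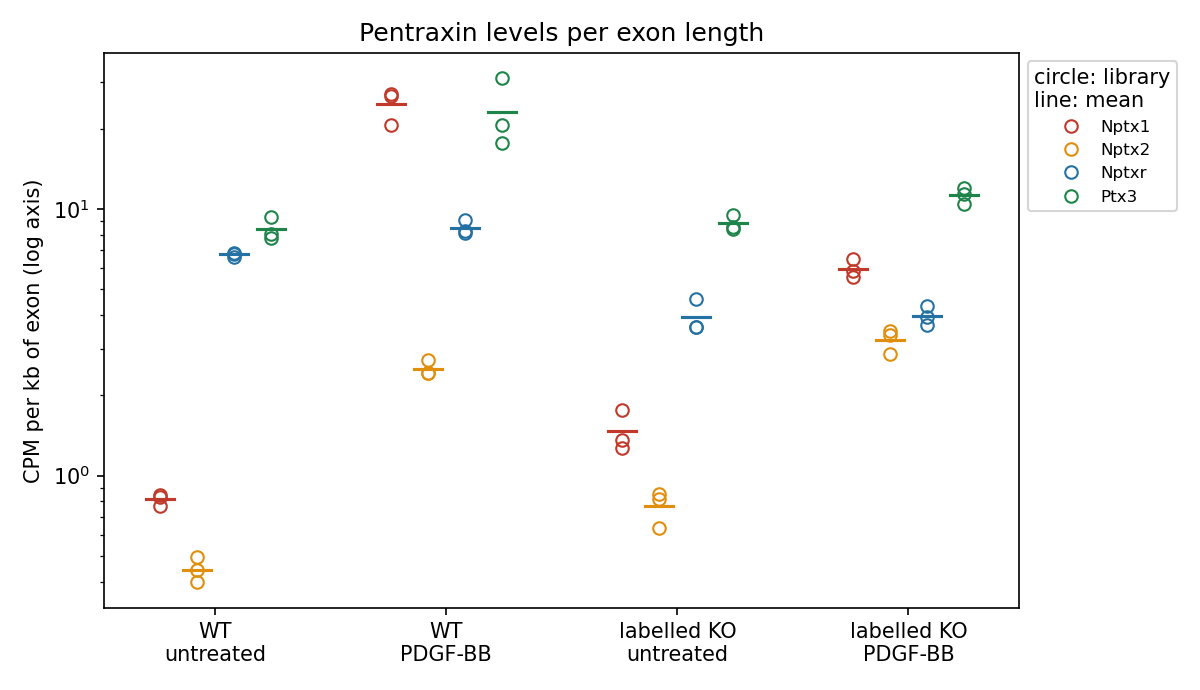
CPM per kb of exon (log axis) of the 4 pentraxin genes by group; circles are libraries and lines are means. Ptx3 is the highest in 3 of the groups, and in WT cells with PDGF-BB it overlaps with Nptx1.

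Most other genes with a pentraxin domain stood at or near 0. Of 8 such genes 3 passed the filter, while the short pentraxins Crp and Apcs and the mucosal Mptx1 and Mptx2 were listed at 0 in all libraries and Ptx4 stood at no more than 0.167 CPM. Svep1, a large matrix protein, fell with PDGF-BB from 253 ± 24.2 to 99.7 ± 36.6 CPM in WT (SD, n = 3; log2 -1.41, SE 0.21, limma-trend adjusted p = 6.71e-05). Its WT libraries with PDGF-BB spread widely, from 57.8 to 126 CPM. In labelled knockout cells it fell from 98.7 ± 2.45 to 53.6 ± 3.73 CPM (-0.87, SE 0.21, adjusted p = 0.00421). Adgrg6, an adhesion G protein-coupled receptor, rose in labelled knockout cells (0.32, SE 0.11, adjusted p = 0.0262) and stood at -0.02 in WT (adjusted p = 0.871). In the interaction Adgrg6 stood at 0.34 and was not called (limma-trend adjusted p = 0.233). By label it was lower in knockout cells, at 20.2 against 56.7 CPM untreated (-1.44, SE 0.11) and at 25.5 against 56.3 CPM with PDGF-BB (-1.10), and so was Svep1 (-1.34 and -0.81). Adgrd1, a related receptor, was higher at 2.59 against 0.887 CPM untreated (0.91) and at 1.77 against 0.508 CPM with PDGF-BB (0.88).

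Among 7 partners of the neuronal pentraxins 3 passed the filter. Of the AMPA receptor subunits only Gria3 did, at 105 to 158 CPM in the group means, while Gria1 and Gria4 stood at no more than 0.199 and 0.625 CPM and Gria2 was listed at 0 in all 12 libraries. Gria3 fell with PDGF-BB in WT (log2 -0.60, SE 0.083, limma-trend adjusted p = 4.29e-05) and in labelled knockout cells (-0.37, SE 0.083, adjusted p = 0.00269). Adam17, the protease that releases Nptxr from the membrane, fell by 0.16 and 0.27 in them (limma-trend adjusted p = 0.0420 and 0.00432), and edgeR did not call it in WT (adjusted p = 0.275). Between labels with PDGF-BB Adam17 was the 1 gene called of the 3, where 37.2% of all genes were called. It stood at -0.24 (limma-trend adjusted p = 0.0120), and edgeR did not call it there (adjusted p = 0.146). Rcn2, a calcium-binding protein that binds neuronal pentraxin in rat, changed by -0.14 and -0.20 and was not called (adjusted p = 0.272 and 0.148). The list's medians were -0.16 and -0.27, against -0.082 and -0.067 over all genes.

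Of 15 Ptx3 ligands and hyaluronan matrix partners 9 passed the filter. With PDGF-BB 4 rose and 1 fell in WT, where 25.0% of all genes rose and 34.4% fell. In labelled knockout cells 3 rose and 1 fell, where 17.6% rose and 24.8% fell. The medians were -0.033 and -0.17. Cd44, the hyaluronan receptor, went from 120 to 916 CPM in WT (log2 2.92, SE 0.074) and from 99.5 to 559 CPM in labelled knockout cells (2.47). Fgf2, a growth factor that Ptx3 binds, rose by 0.80 and 0.42, and Tnfaip6, which cross-links hyaluronan with Ptx3, by 0.39 and 0.49. Itih2, a heavy chain carried on hyaluronan, fell by 0.47 and 0.38. Has2, a hyaluronan synthase, rose by 0.75 in WT (limma-trend adjusted p = 0.00138) and stood at 0.01 in labelled knockout cells (adjusted p = 0.983).

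Between genotype labels this list differed widely, with 3 of 9 higher and 6 lower untreated, where 9.15% of all genes were higher and 24.8% lower. With PDGF-BB 2 were higher and 6 lower, where 10.6% and 26.6% were, and the medians were -0.56 and -0.72 against -0.13 and -0.14 over all genes. Selp, an adhesion receptor that binds Ptx3 and is made by endothelial cells, stood at 25.7 against 3.47 CPM untreated (log2 2.59, SE 0.14) and at 22.8 against 2.99 CPM with PDGF-BB. Tnfaip6 was higher by 1.03 untreated and 1.13 treated on the log2 scale, and Has2 by 1.06 untreated. The C1q chains, made by macrophages, were lower: C1qb stood at 2.71 against 11.7 CPM untreated (-1.78) and C1qa at 1.92 against 10.0 CPM treated (-1.88). Selp and the C1q genes moved the way the endothelial and myeloid marker sums did, and the part of other cell types in them was not tested. In the interaction 1 of the 9 genes was called, where 3.92% of all genes were. This was Cd44, at -0.44 (SE 0.10, limma-trend adjusted p = 0.0313).

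Of 14 other NF-kappaB target genes all passed the filter. In WT cells with PDGF-BB 4 rose and 8 fell, where 25.0% and 34.4% of all genes did, with a median of -0.36 against -0.082 over all genes. In labelled knockout cells 3 rose and 4 fell, where 17.6% and 24.8% did, with a median of -0.098 against -0.067. Ptgs2, the inducible cyclooxygenase, went from 52.9 to 176 CPM in WT (log2 1.72, SE 0.11) and the chemokine genes Ccl2 and Ccl7 rose by 1.39 and 1.26, and the adhesion gene Vcam1 by 0.58. Icam1, another adhesion gene, fell by 0.86 there. In labelled knockout cells Ptgs2 rose by 1.29, Ccl7 by 1.20 and Ccl2 by 0.89, while the chemokine gene Cxcl1 fell by 0.68, Icam1 by 0.51, Relb by 0.33 and Nfkb1 by 0.28.

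By label Il6 was higher in untreated knockout cells, at 16.8 against 2.15 CPM (log2 2.46, SE 0.20), and with PDGF-BB at 12.1 against 1.75 CPM (2.26). Over the list 4 genes were higher and 7 lower untreated, where 9.15% and 24.8% of all genes were, and edgeR called 7 of these 14 genes where limma-trend called 11. With PDGF-BB 4 were higher and 3 lower, where 10.6% and 26.6% of all genes were. The other higher genes were Vcam1 (log2 1.34 untreated and 1.01 treated), Icam1 (0.81 and 1.16) and Ptgs2 (1.02 and 0.59). The lower genes with PDGF-BB were Ccl7 (-0.62), Sod2 (-0.42), the mitochondrial superoxide dismutase, and Relb (-0.41), an NF-kappaB subunit. In the interaction 0 genes of the list were called by limma-trend or by edgeR, where limma-trend called 3.92% of all genes. Of the 14 genes 5 had an unadjusted p under 0.05, a share that was not counted over all genes and so has no background here. Over all genes edgeR called 59.2% in WT, 42.5% in labelled knockout cells, 27.7% between untreated labels, 29.2% between treated labels and 3.49% in the interaction.

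**Figure D5:**
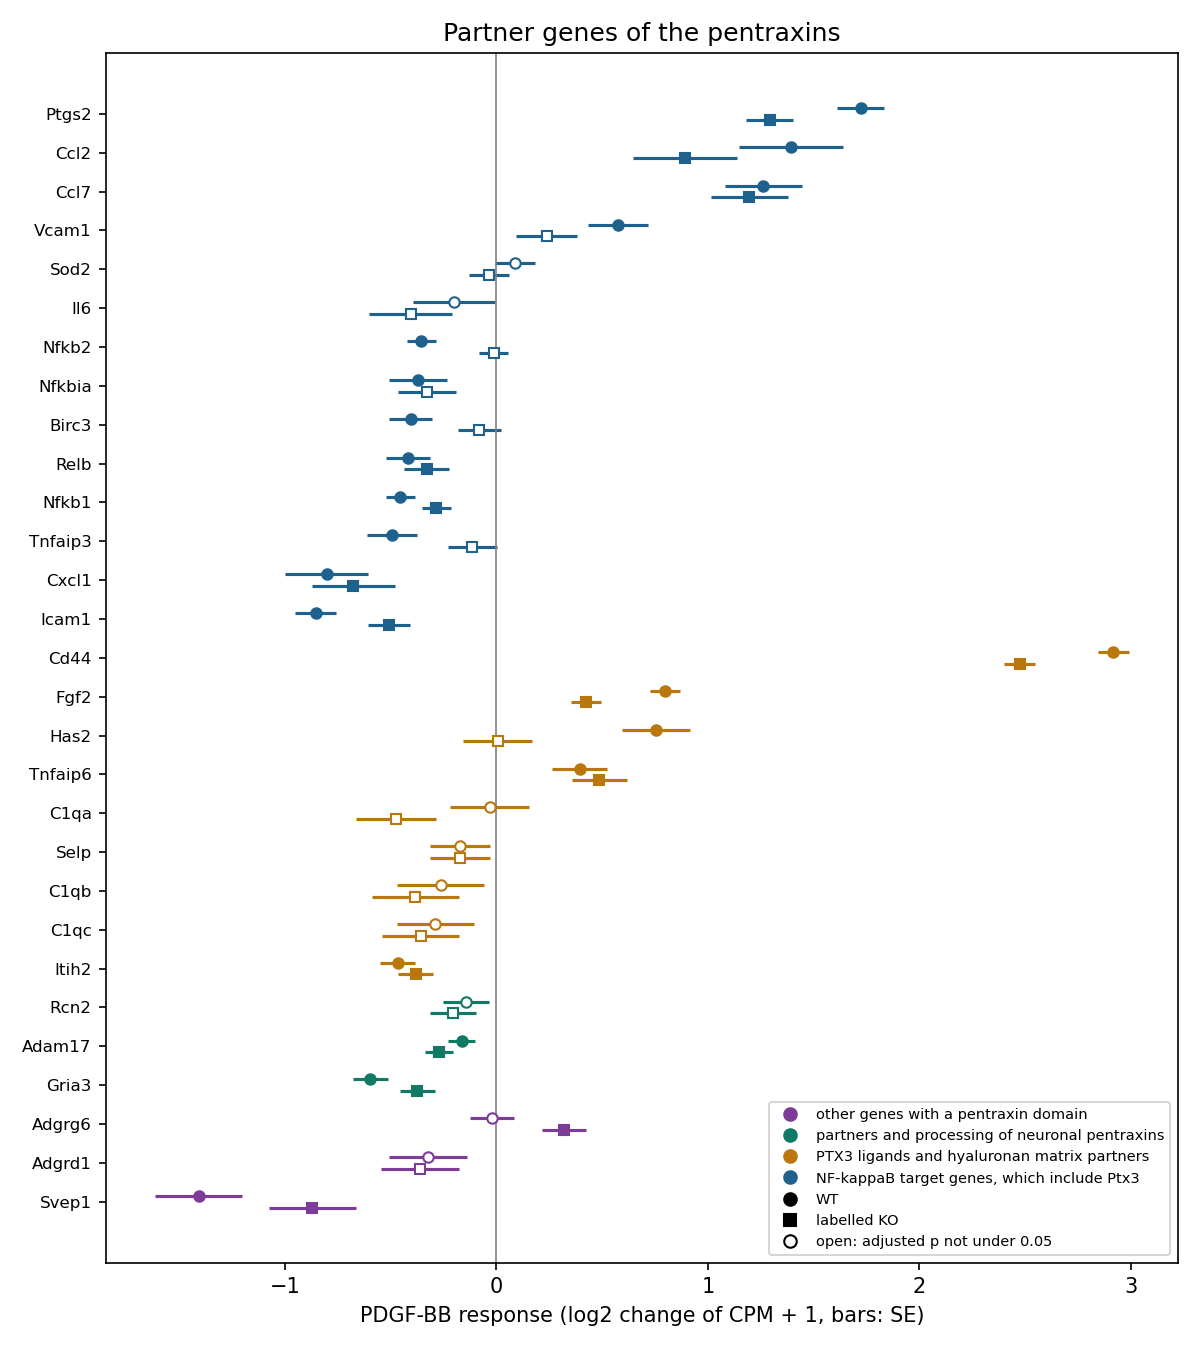
PDGF-BB response (log2 change of CPM + 1, with SE) in WT (circles) and labelled knockout cells (squares) for the genes of the 4 lists that passed the filter; open symbols were not called. Cd44 (2.92 and 2.47) and Ptgs2 (1.72 and 1.29) rise most, and Svep1 (-1.41 and -0.87) falls most.

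The 12 libraries share treatment and label as sources of variation. The genes most like each pentraxin gene over them were found by Pearson's r, with predicted gene models left out. For Nptx1 these were Sgms1 (0.986), Vars, Pde12, Dse and Pgam1 (0.984), a sphingomyelin synthase, a valyl-tRNA synthetase, a phosphodiesterase, a dermatan sulfate epimerase and a glycolytic mutase. For Nptx2 they were the chemokine gene Cxcl14 (0.994), Layn, Cyth3, Ttc9 and Nmt2 (0.988). For Nptxr they were the homeobox gene Hoxa3 (0.987), Nrcam, Oga, Foxd1 and the Kit ligand gene Kitl (0.979). For Ptx3 they were Gorab (0.988), the calcineurin subunit gene Ppp3ca, Tor2a, Riok2 and Snu13 (0.971). Cxcl14 stood at 0.656 and 9.55 CPM in WT without and with PDGF-BB, and at 2.16 and 14.0 CPM in labelled knockout cells. Gorab stood at 22.8 and 51.5 CPM in WT, and at 23.3 and 30.1 CPM in labelled knockout cells. Within the family r was 0.895 between Nptx1 and Ptx3, 0.853 between Nptx1 and Nptx2, and 0.666 between Nptx2 and Ptx3. With Nptxr it was 0.576 for Ptx3, 0.383 for Nptx1 and -0.029 for Nptx2.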

How the data were processed

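RNA of 12 libraries was sequenced after stranded poly(A) library preparation, per the labels' protocols. HISAT2, HTSeq and the mm10 build are named in the submitters' processing notes, while versions, the strand setting and the overlap mode are not given in the sources used here. The deposited values are CPM, whatever the table's name says of FPKM, since libraries summed to 1000000, and 100% of values came out as whole reads within 0.001 read. The authors' exon lengths, an annotation column in bases, match the longest coding transcript of each pentraxin gene. Levels per kb here use the union of exons of GENCODE release M21 on GRCm38, whose gene coordinates equal those in the deposited table.

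Genes with CPM of at least 1 in at least 3 libraries were tested with limma-trend in R 4.3.3 (limma 3.58.1), as log2(CPM + 1). All 4 groups entered together, each with its own mean and with no block. P-values are 2-sided, adjusted by Benjamini-Hochberg across 14202 genes, with a threshold of 0.05. The labels give no pairing beyond a replicate number. The correlation of same-numbered libraries, given below, cannot exclude pairing with 3 libraries per group. Intervals of 95% come from the same fit. The members, the 4 gene lists, the marker lists and the tests were chosen with earlier results of these data known. Nptx1 was chosen for its response, so no test of it is given. List genes are named by a rule: up to 4 called genes per list and contrast, those of largest change, plus genes behind a count of 5 or fewer, of which the text gives examples; Rcn2, Tagln and genes at or near 0 were named after their values were seen. From the list of Ptx3 ligands 1 gene is not reported here and was left out of its counts and medians after values were seen. Likeness is Pearson's r of log2(CPM + 1), which does not measure the size of a change. It was ranked among genes that passed the filter with a mean CPM of at least 1. Predicted gene models (symbols of Gm and digits, or ending in Rik) were left out. Alternatives changed the pseudocount, filter, scaling, groups in the fit, block, tool (recovered reads in edgeR 4.0.16 or DESeq2 1.42.0) and libraries. No table of protein sequences was used. The procedure was tested on simulated data. Figures were drawn with matplotlib 3.10.9.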

Additional observations from a re-analysis of the deposited data

Results flagged for a closer look

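For Ptx3 the test of the difference between the responses under the 2 genotype labels passed the threshold with all libraries: the response in labelled knockout minus that in WT was -1.04 (SE 0.22, limma-trend adjusted p = 0.0193), with responses of 1.38 in WT and 0.34 in labelled knockout cells. The call was lost on leaving out any of 4 single libraries (adjusted p of 0.0505 to 0.0632, limma-trend). Cd44, the hyaluronan receptor, also met this test at -0.44 (SE 0.10, limma-trend adjusted p = 0.0313), with responses of 2.92 in WT and 2.47 in labelled knockout cells.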

How the results depend on the processing

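No pentraxin change reversed among those called, under any alternative run. For Nptx1 the WT response was 4.88 with a pseudocount of 0.1, 5.01 with edgeR and 4.99 with DESeq2. Its labelled knockout response was 2.08 with edgeR and 2.08 with DESeq2, its untreated difference 0.90 with quantile normalization, 0.98 with edgeR and 0.99 with DESeq2, and its interaction -2.93 and -2.92 with those tools. Nptx2 between labels with PDGF-BB passed at 0.41 with TMM scaling, 0.41 with quantile normalization, 0.47 with edgeR and 0.49 with DESeq2, and leaving out 1 library gave 0.26 to 0.39. The Ptx3 response in labelled knockout cells passed at 0.40 with TMM scaling, 0.41 with DESeq2, 0.34 in the compared groups only and 0.34 with the replicate block (limma-trend adjusted p = 0.0417), and leaving out 1 library gave 0.30 to 0.40. Leaving out 1 library gave 0.27 to 0.35 for Nptxr in WT and -1.21 to -0.81 for the Ptx3 interaction. Deviations of same-numbered libraries correlated at r of -0.231 to 0.175 over 18 pairs, 3 over 0.1. With so few libraries per group this cannot exclude pairing. The replicate block changed no other call of a tested member, and it called 417 genes in the interaction against 557. Between labels with PDGF-BB 3438 genes were called in the compared groups only, against 5284. In the interaction 371 were called with no filter, 910 with DESeq2, and 274 to 1554 when 1 library was left out, the most without replicate 1 of WT with PDGF-BB. With edgeR 1 of 3 partners of neuronal pentraxins was called in WT and 0 between labels with PDGF-BB, against 2 and 1 with limma-trend. The shares called over all genes were 59.2% and 29.2% with edgeR, against 59.4% and 37.2%. Between untreated labels edgeR called 7 of 14 NF-kappaB targets, against 11, where it called 27.7% of all genes, against 34.0%. The causes were not tested. Nptx2 was not tested with a mean CPM of at least 5, since it was then filtered out. A comparison of protein sequences was not run. With 16 reads in its lowest library, Nptx2 had the fewest reads of the 4 genes.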
